A study of Mus musculus with 20 samples.

Results

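The cell composition of the mouse kidney 1 d after long ischemia (IRI long 1 d) was compared with that of control kidneys, cluster by cluster. The cells were chosen by the treatment group and day deposited for each cell. IRI long 1 d held 13950 of 113579 cells, from 2 of 18 libraries, and control held 37872 cells, from 6 libraries. The mice were C57BL/6J males 10 to 12 weeks old, and IRI long stands for 30 min of bilateral renal ischemia followed by reperfusion. Both renal pedicles were clamped under isoflurane, and buprenorphine was given once the clamps were off. The sample labels name the other group only as control, so it is not known here whether these mice had sham surgery. Kidneys were flushed with saline through the heart, digested with enzymes, strained, cleared of red blood cells and sequenced as single cells. The chemistry stated by the authors is 10X 3′ v3. Each cell carries a cluster name given by hand, and the values used here are the numbers of cells with each of 18 names per library. The tables used here hold no gene expression, so the names could not be checked against marker genes.

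In ischemia-reperfusion injury, the blood supply of the kidney is stopped and then restored. The proximal tubule (PT), which reabsorbs most of the filtrate and depends on oxidative metabolism, is the segment known to suffer most, above all the straight S3 part in the outer medulla. Neutrophils and monocytes enter from the blood within the first day, and the lining of the small vessels becomes leaky. A dissociated kidney gives shares of cells and not numbers of cells per kidney, so fewer cells of one type and more cells of the others cannot be told apart in a share. For this reason each cluster was also expressed per immune cell or per non-immune cell. Within immune cells, and within non-immune cells, the shares are still tied to one another.

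The 2 libraries of IRI long 1 d are called IRF1 and IRF5 in the cell names (library names, not genes) and held 6103 and 7847 cells. Control libraries held 2272 to 14320 cells, with a median of 5332.5. Nothing in the tables ties a library to a numbered mouse, so p-values measure the spread between libraries. Control libraries norm1 to norm4 and Scl shared 9 to 128 cell barcodes per pair, as if drawn from a smaller set of barcodes than those of the sixth control library, norm5, and of all ischemia libraries. norm5 shared 7 barcodes with IRF1 and 19 with IRF5, while IRF1 and IRF5 shared 18. norm5 is therefore the control of the same barcode set as the ischemia libraries. For the 18 clusters, the compartments and the ratios, results that change when norm5 is the only control are given with that value. Why the barcode sets differ under 1 stated chemistry is not known here. Between the other 5 controls and the ischemia libraries, barcode set and ischemia differ together and cannot be told apart. Compared with the other 5 controls, norm5 had the lowest share of PT cells (30.3%) and the highest share of immune cells (17.8%).

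**Figure D1:**
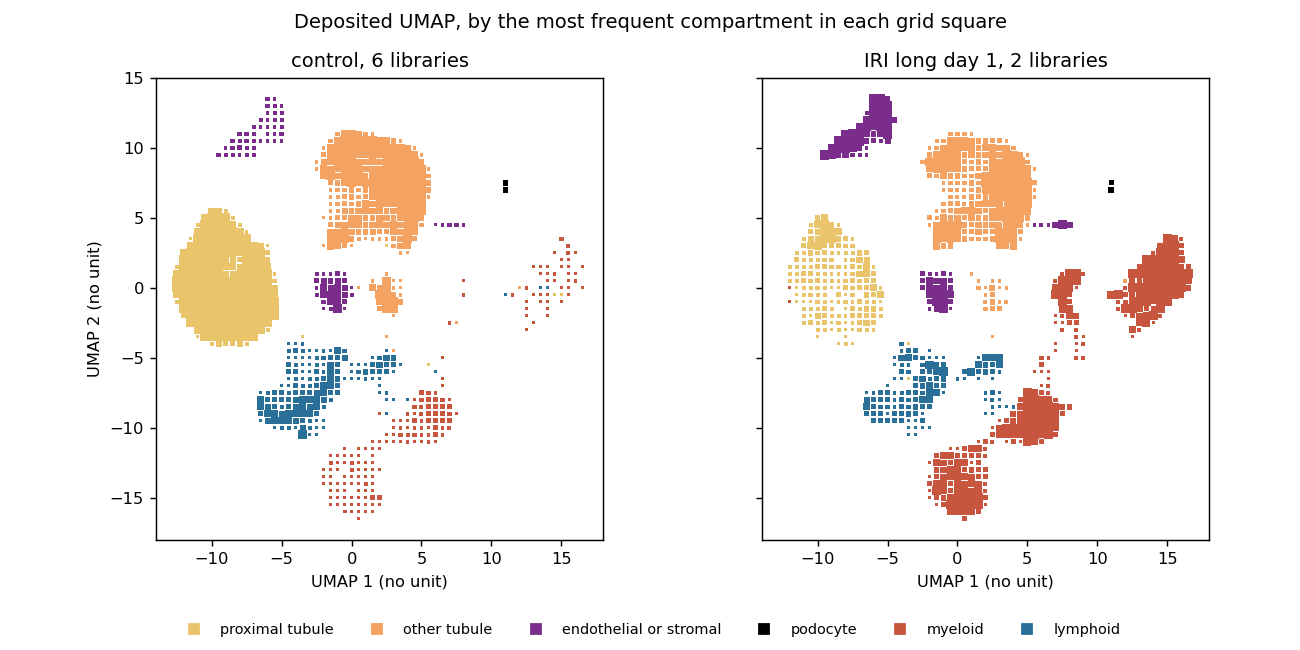
The authors' UMAP (axes without unit) for the 6 control libraries (left) and the 2 IRI long 1 d libraries (right), in grid squares coloured by the compartment most frequent in each square and drawn larger where they hold a larger share of the cells. The PT area is thinned out and the myeloid areas are filled after ischemia, and the endothelial area at the upper left is far denser than in control.

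At day 1 immune cells and endothelial or stromal cells took larger shares, and PT cells smaller shares, than in any control library. Immune cells made up 60.5% of IRF1 and 41.7% of IRF5, against 6.11 to 17.8% in control (median 10.4%). PT cells made up 8.47 and 6.74%, against 30.3 to 68.1% in control (median 46.9%). Endothelial and stromal cells, that is the clusters GEC, Endo and Myofib together, were 15.6 and 16.1%, against 2.10 to 4.93% (median 3.83%). In 5 of 7 compartment shares (71.4%) the libraries of the 2 groups did not overlap, namely immune, myeloid, granulocyte, PT and endothelial or stromal cells. The endothelial and stromal share was the one in which the 2 ischemia libraries lay closest, 15.9% ± 0.307 (SD, n = 2) against 3.58% ± 1.13 (SD, n = 6). Its difference of 12.3 percentage points had an exact two-sided permutation p = 0.0357 (with 2 against 6 libraries no smaller p is possible) and 0.05 after Benjamini-Hochberg adjustment over the 7 shares. The other 4 had the same p and adjusted p, with differences of 40.3 points for immune cells, 42.5 for myeloid cells, 27.6 for granulocytes and −41.9 for PT cells. With norm5 as the only control the PT difference was −22.7 points. The remaining tubule segments together gave 15.3 and 35.1%, against 23.1 to 49.5%, and lymphoid cells 8.50 and 4.51%, against 3.85 to 14.8%. Both of these ranges overlapped (exact two-sided permutation p = 0.286 and 0.536).

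Of the 18 clusters, 11 (61.1%) differed from control past an adjusted p of 0.05 with limma on the logit scale, the natural log of the odds that a cell belongs to the cluster. Of these, 8 were higher (44.4% of the clusters) and 3 lower (16.7%). Clusters that rose were Granul_1, Granul_2, Mono_1, Mono_2, Macro, GEC, Endo and Myofib, and clusters that fell were PT S1, PT S3 and IC. DCT, LOH, PC, Podo, T cell_1, T cell_2 and B cell did not pass the test. With a centred log-ratio, which sets each cluster against the mean of all clusters in place of all cells, 7 rose and 8 fell. GEC no longer passed there. LOH, DCT, PC (−1.02, adjusted p = 0.00843), T cell_1 (−1.56, adjusted p = 0.00227) and T cell_2 (−1.20, adjusted p = 0.0137) passed as lower (limma). The mean of all clusters includes Granul_1 and Granul_2, so their rise lowers every other cluster on this scale. These calls alone therefore do not show that LOH, DCT, PC or the T cell clusters fell, or that GEC did not rise.

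**Figure D2:**
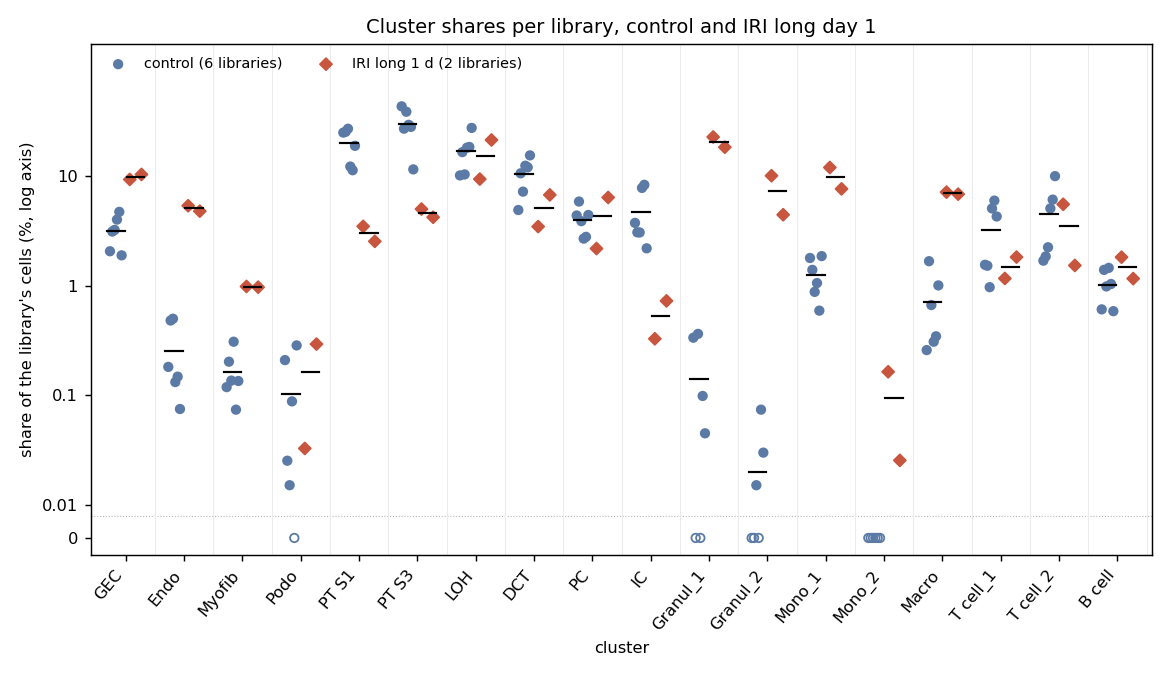
Share of each cluster in each library, as percent of the library's cells on a log axis, with open symbols at 0 for libraries without a cell of the cluster and a bar at the group mean. Both IRI long 1 d libraries lie above all 6 control libraries for Granul_1, Granul_2, Mono_1, Mono_2, Macro, GEC, Endo and Myofib, and below them for PT S1, PT S3 and IC.

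Granulocytes, short-lived phagocytes that are nearly absent from a healthy kidney, went from almost none to the most frequent immune cells. Granul_1 was 22.7% of IRF1 and 18.3% of IRF5. In control, 2 libraries held no Granul_1 cell (0 of 3949 and 0 of 2272 cells, which allow shares of up to 0.0760 and 0.132%), and the highest was 0.363%. The logit change was 5.81 ± 0.66 (SE; limma, adjusted p = 5.03e-07). Granul_2 was 10.1 and 4.43%, against 0 in 3 control libraries and at most 0.0740% in the others, a logit change of 5.87 ± 0.59 (limma, adjusted p = 1.58e-07). These were the 2 largest changes of the 18 clusters. All granulocytes together were 27.7% ± 7.08 (SD, n = 2) of cells, against 0.160% ± 0.165 (SD, n = 6), a ratio of means of 173. The number of Granul_2 cells per Granul_1 cell was 0.444 in IRF1 and 0.243 in IRF5, but control libraries held so few granulocytes (79 and 6 cells of the 2 clusters in all) that a change of this ratio could not be read (exact two-sided permutation p = 0.929).

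The clusters Mono_1 and Macro, mononuclear phagocytes, rose as well. Mono_1, monocytes by name, were 12.0 and 7.63% of cells, against 0.592 to 1.86% in control (median 1.22%), with a logit change of 2.18 ± 0.35 (limma, adjusted p = 2.59e-05). Macro, the macrophages, which include cells resident in healthy tissue, were 7.13 and 6.83%, against 0.258 to 1.67% (median 0.505%), with a logit change of 2.57 ± 0.41 (limma, adjusted p = 2.59e-05). The ratio of means was 7.77 for Mono_1 and 9.84 for Macro. Mono_2 was a cluster of few cells, 0.164% of IRF1 and 0.0255% of IRF5 and none in control. Pooled over libraries there were 12 cells of 13950 (0.0860%) against 0 of 37872, which allows a share of up to 0.00792% over all controls. The pooled share was 10.9 times that limit, a value that leaves out the counting error of the 12 cells. Taken alone, norm5 allows a share of up to 0.0450%, which is above the share of IRF5. Of these 12 cells, 10 came from IRF1 and 2 from IRF5 (exact 95% binomial interval 0.00309 to 0.0920% of IRF5). In a second annotation of the same cells, described last, 6 of the 12 were named PT, 4 Fibro, 1 Macro and 1 PST. The limma call of Mono_2 (adjusted p = 0.00111) was lost without IRF1 (adjusted p = 0.0975) and on the arcsine scale (adjusted p = 0.142).

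Counted per immune or non-immune cell, 11 of 18 clusters (61.1%) again passed with limma, 5 higher (27.8%) and 6 lower (33.3%). Among the myeloid clusters, those of the granulocytes passed and the other 3 did not. Granul_1 was 37.5 and 43.8% of immune cells, against 0 to 5.94% in control, and Granul_2 16.6 and 10.6%, against 0 to 0.521%. The logit changes were 4.47 ± 0.76 and 4.32 ± 0.48 (limma, adjusted p = 3.32e-05 and 2.11e-07). Mono_1 cells were 19.8 and 18.3% of immune cells, within the control range of 4.17 to 28.7%. Macro cells were 11.8 and 16.4%, within the control range of 2.38 to 21.4% (limma, adjusted p = 0.0898). Macro did pass when norm5 was the only control (adjusted p = 0.0234), without norm1 (0.00733) and without norm2 (0.0469), all with limma. The log2 ratio of Macro to Mono_1 was −0.75 and −0.16, inside the control range of −2.77 to 0.26 (exact two-sided permutation p = 0.464).

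Lymphocytes, the main immune cells of the control libraries, fell as a share of immune cells, while their share of all cells did not pass the test. T cell_1 was 1.16 and 1.82% of all cells, against 0.968 to 5.97% (median 2.91%), T cell_2 was 5.52 and 1.53%, against 1.69 to 9.98% (median 3.65%), and B cell was 1.82 and 1.16%, against 0.585 to 1.45% (median 1.01%). None of the 3 passed the test, with logit changes of −0.59, −0.22 and 0.42 (limma, adjusted p = 0.278, 0.719 and 0.286). With norm5 as the only control both T cell clusters passed, at −1.10 and −1.30 (limma, adjusted p = 0.0259 and 0.0348). In the second annotation, described last, 65.0% of the T cell_2 cells of IRF1 and 12.5% of those of IRF5 were named PT. In control libraries this was 0.413 to 29.1%. The values of T cell_2 and of all lymphoid cells given here include these cells. Per immune cell, both ischemia libraries lay below all controls in each of the 3 clusters. T cell_1 was 1.92 and 4.37% of immune cells, against 15.8 to 42.0%. T cell_2 was 9.13 and 3.66%, against 23.6 to 56.1%. B cells were 3.01 and 2.78%, against 3.29 to 17.8%. All 3 fell on this denominator, by 2.49, 2.25 and 1.29 on the logit scale (limma, adjusted p = 1.26e-05, 3.59e-05 and 0.00833). A rise of the granulocytes lowers these shares even if the number of lymphocytes stays the same. The shares therefore do not show that there were fewer lymphocytes. The B cell call was lost without IRF5 (adjusted p = 0.0746) and with norm5 alone, where the change was −0.14 (adjusted p = 0.719, limma). Granulocytes outnumbered lymphoid cells 3.85 to 1 in IRF1 and 5.03 to 1 in IRF5, and in no control library did they exceed 0.0919 per lymphoid cell. This log2 ratio rose by 8.50 (exact two-sided permutation p = 0.0357, 0.0643 after adjustment over the 9 ratios examined).

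**Figure D3:**
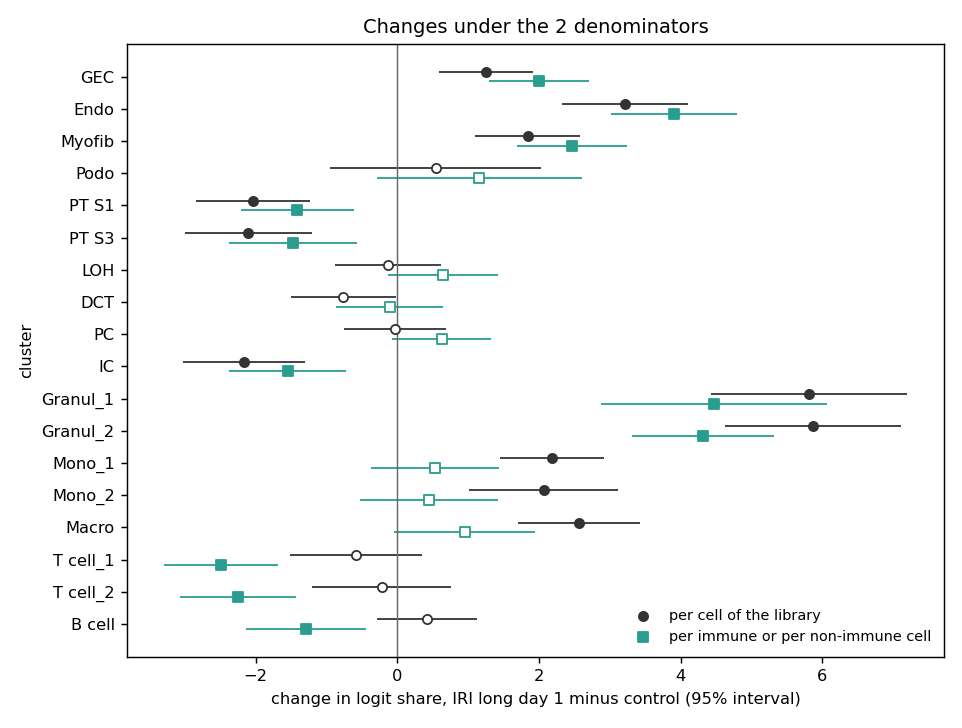
Change in logit share from control to IRI long 1 d for each cluster with its 95% interval from limma, per cell of the library (circles) and per immune or non-immune cell (squares), filled where the adjusted p is under 0.05. Per immune cell the 3 lymphoid clusters lie below 0 and Mono_1, Mono_2 and Macro no longer pass, while GEC, Endo, Myofib, PT S1, PT S3 and IC keep their direction.

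Both PT clusters fell, and under these names by a like amount. PT S1, the convoluted part, made up 3.47 and 2.54% of cells, against 11.3 to 27.0% in control (median 21.9%). PT S3, the straight part, made up 5.00 and 4.21%, against 11.5 to 43.2% (median 28.7%). The logit changes were −2.04 ± 0.38 and −2.10 ± 0.43 (limma, adjusted p = 0.000123 and 0.000206). The lowest control value of PT S3 was that of norm5, and with norm5 as the only control the change of PT S3 was −0.99 and did not pass (adjusted p = 0.0850, limma), whereas PT S1 did (−2.03, adjusted p = 0.00334, limma). The number of PT S1 cells per PT S3 cell was 0.696 in IRF1 and 0.604 in IRF5, inside the control range of 0.402 to 1.64, and its log2 difference was −0.08 (exact two-sided permutation p = 0.929). A difference between the segments was not detectable against a control spread of 0.77 (SD of the log2 ratio, n = 6). Against norm5, the control with the highest ratio, the log2 difference was −1.34. The ratio depends on the names of the cells. Among cells of the same compartment in the second annotation, IRF5 held 174 PT S1 and 70 PT S3 cells. IRF1 held 205 and 266 such cells, and norm5 held 1201 and 691. This ratio was not tested on those cells.

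The fall of PT cells was smaller but present among non-immune cells. PT S1 was 8.80 and 4.35% of them, against 13.2 to 28.7%, and PT S3 12.7 and 7.22%, against 14.0 to 46.1%. The logit changes were −1.41 ± 0.38 and −1.47 ± 0.44 (limma, adjusted p = 0.00285 and 0.00550). Neither passed without IRF5 (adjusted p = 0.0930 and 0.101, limma), and PT S3 did not pass with norm5 as the only control (−0.42, adjusted p = 0.527, limma).

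Intercalated cells (IC), the acid- and base-secreting cells of the collecting duct, fell as well, with a ratio of means of 0.112. They were 0.328% of IRF1 and 0.726% of IRF5, 77 cells in all, against 2.19 to 8.31% in control (median 3.40%). The logit change was −2.16 ± 0.41 (limma, adjusted p = 0.000123). Per non-immune cell they also fell, by 1.55 on the logit scale (limma, adjusted p = 0.00207), although this call was lost with norm5 as the only control (adjusted p = 0.0683, limma). Principal cells (PC), which reabsorb water and sodium beside them in the same duct, were 2.18 and 6.37%, against 2.68 to 5.85%, so that 1 ischemia library lay below and 1 above all controls (logit change −0.03; limma, adjusted p = 0.930). There were 0.154 and 0.115 IC cells per PC cell after ischemia, against 0.497 to 2.97 in control. The log2 ratio differed by −3.01 (exact two-sided permutation p = 0.0357, adjusted 0.0643), and the difference was −1.91 against norm5, the lowest control.

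Loop of Henle (LOH) and distal convoluted tubule (DCT) cells, which reclaim salt downstream of the PT, made up an unequal part of the 2 ischemia libraries. LOH cells were 9.37% of IRF1 and 21.3% of IRF5, against 10.1 to 27.5% in control (median 17.3%; logit change −0.13, limma, adjusted p = 0.759). DCT cells were 3.46 and 6.73%, against 4.90 to 15.4% (median 11.3%). The logit change of DCT, −0.76 ± 0.35, missed the threshold (limma, adjusted p = 0.0669). With a centred log-ratio both LOH (−1.10, adjusted p = 0.00291) and DCT (−1.69, adjusted p = 8.49e-05) passed as lower (limma). On that scale the rise of the granulocytes lowers all other clusters. DCT passed on the arcsine scale (adjusted p = 0.0405), without IRF5 (0.0402), without Scl (0.0195) and with norm5 as the only control (0.0149), each with limma. Per non-immune cell, DCT at 8.76 and 11.5% lay inside the control range of 5.22 to 18.8% (limma, adjusted p = 0.773). LOH cells per non-immune cell were 23.7 and 36.6%, against 10.8 to 33.4% (limma, adjusted p = 0.123). On this denominator LOH passed without norm5 (0.81, adjusted p = 0.0360) and PC without IRF1 (1.00, adjusted p = 0.0474, both limma).

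Relative to PT cells, LOH cells were more frequent than in any control, with 1.11 per PT cell in IRF1 and 3.16 in IRF5 against 0.149 to 0.905. The log2 ratio rose by 2.49 (exact two-sided permutation p = 0.0357, adjusted 0.0643), and by 1.05 against norm5, the control with the highest ratio. DCT cells per LOH cell were 0.369 and 0.316, below all controls (0.484 to 0.697), a log2 difference of −0.85 with the same p and adjusted p. In 5 of the 9 ratios (55.6%) the libraries of the groups did not overlap: granulocytes to lymphoid cells, IC to PC, GEC to Endo, LOH to PT and DCT to LOH. Each of the 5 had the smallest exact permutation p and none was under 0.05 after adjustment. The ratio of T cell_1 to T cell_2 overlapped (exact two-sided permutation p = 0.643).

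**Figure D4:**
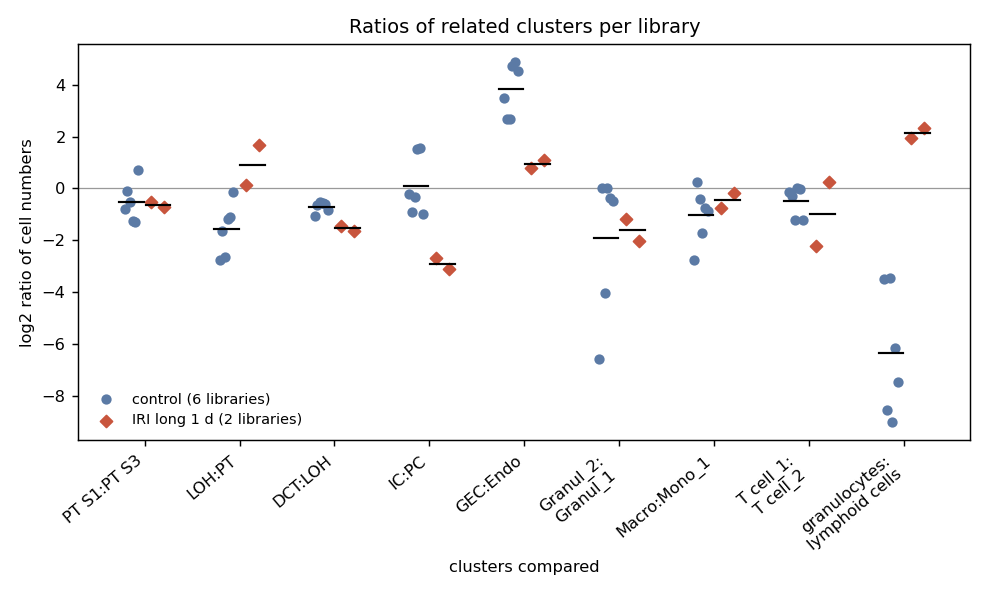
Log2 ratio of cell numbers for 9 pairs of related clusters or classes in each library, with 0.5 cells added and a bar at the group mean. The 2 IRI long 1 d libraries lie outside the range of the 6 controls for LOH:PT, DCT:LOH, IC:PC, GEC:Endo and granulocytes to lymphoid cells.

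Endothelial cells, which line the vessels and are met first by incoming leukocytes, rose on both denominators. Endo was 5.36 and 4.78% of all cells, against 0.0750 to 0.499% in control (median 0.165%). The ratio of means was 20.0, and the logit change was 3.22 ± 0.42 (limma, adjusted p = 2.92e-06). GEC, glomerular endothelial cells by name, were 9.31 and 10.3%, against 1.89 to 4.71% (median 3.17%), with a logit change of 1.25 ± 0.32 (limma, adjusted p = 0.00150). The GEC call was lost with a centred log-ratio (0.19, adjusted p = 0.538, limma), where the rise of the granulocytes lowers all other clusters. Myofib, contractile matrix-forming cells, were 0.983 and 0.969%, against 0.0740 to 0.308% (median 0.136%), with a logit change of 1.84 ± 0.35 (limma, adjusted p = 0.000126). In the second annotation the cluster SMC, which held 61.0% of the Myofib cells of IRI long 1 d but 28.3% of the 53 in control, did not pass (0.58, adjusted p = 0.194, limma).

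Among non-immune cells GEC were 23.6 and 17.7%, against 2.20 to 5.49%, Endo 13.6 and 8.20%, against 0.0912 to 0.532%, and Myofib 2.49 and 1.66%, against 0.0862 to 0.354%. All 3 rose on this denominator, by 1.99 ± 0.34, 3.90 ± 0.43 and 2.47 ± 0.37 (logit ± SE; limma, adjusted p = 3.32e-05, 2.11e-07 and 1.26e-05). The number of GEC per Endo cell was 1.74 in IRF1 and 2.16 in IRF5, against 6.33 to 29.5 in control. That log2 ratio differed by −2.87 (exact two-sided permutation p = 0.0357, adjusted 0.0643).

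GEC cells lay in 2 separate areas of the authors' UMAP, one near its centre and one at the upper left that also held all Endo cells. The limits of these areas were set after the map had been seen, so the following is a description without a test. In control, 63.4 to 93.7% of the GEC cells of a library lay in the centre and 3.97 to 33.3% in the area of Endo. In IRF1, 20.8% lay in the centre and 78.7% in the area of Endo, and in IRF5 the shares were 33.2 and 65.7%. As percent of all cells, GEC in the centre made up 1.93% of IRF1 and 3.43% of IRF5, inside the control range of 1.66 to 3.92%. GEC in the area of Endo made up 7.32 and 6.79%, against 0.0750 to 1.04% in control. The GEC cells above the control range at day 1 thus lay in the area shared with Endo. In that shared area 83.0% of the GEC cells of IRI long 1 d were also named GEC, Endo in a second annotation, against 97.7% in control, and 5.82% were named PST and 6.43% PT, both proximal tubule names.

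Among the other ischemia groups, the area shared with Endo held 66.9 and 75.0% of the GEC cells of the 2 libraries at IRI long 3 d. At IRI long 14 d it held 11.5 and 19.2%, within the control range. After short ischemia (23 min) it held 34.4 to 54.5% at 1 d, 39.3 and 53.8% at 3 d and 18.1 and 22.1% at 14 d. As percent of all cells, these GEC cells were 4.39 and 5.38% at IRI long 3 d, 0.270 and 0.692% at IRI long 14 d, and 1.99 and 3.08% at IRI short 1 d. They were 3.65 and 3.54% at IRI short 3 d and 1.19 and 1.13% at IRI short 14 d. All of these libraries were below IRF1 and IRF5.

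**Figure D5:**
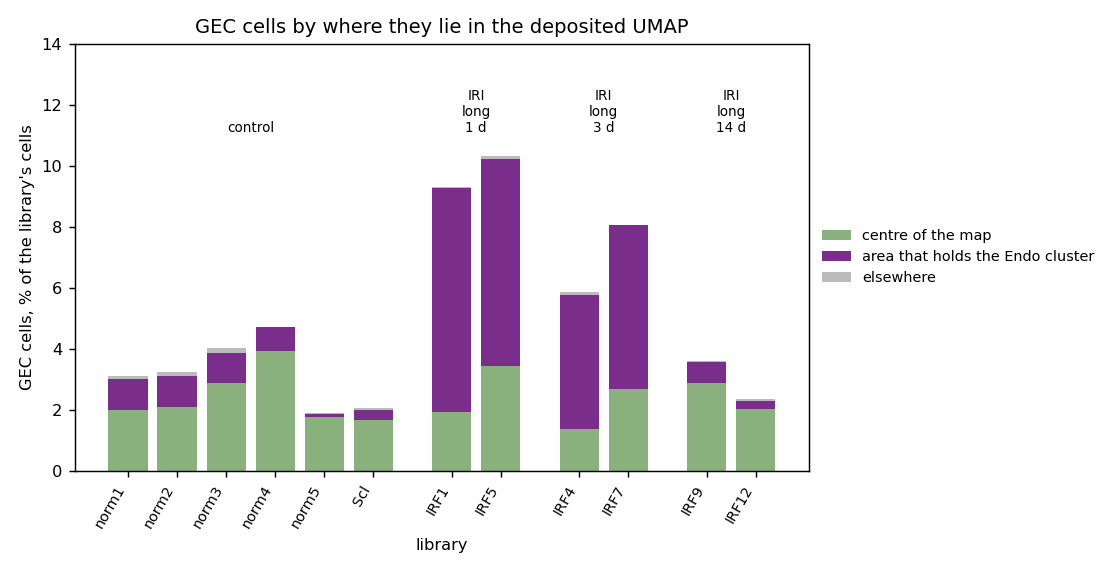
GEC cells of the control and IRI long libraries as percent of the library's cells, stacked by the area of the deposited UMAP in which they lie. The part in the area of the Endo cluster reaches 7.32% in IRF1 and 6.79% in IRF5 and at most 1.04% in control, while the part in the centre stays between 1.36 and 3.92% over these 12 libraries.

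Podocytes (Podo), the filter cells of the glomerulus, were too few for a comparison, with 0.0328 and 0.293% of cells against 0 to 0.285% in control (logit change 0.54; limma, adjusted p = 0.549). Per non-immune cell Podo passed without norm5 (1.48, adjusted p = 0.0499, limma) and not with all libraries (adjusted p = 0.132, limma). There were 25 Podo cells in IRI long 1 d and 53 in control.

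The 2 libraries of IRI long 1 d differed from one another by more than counting error in 12 of 18 clusters, judged by exact 95% binomial (Clopper-Pearson) intervals that do not overlap and that cover counting error only. IRF1 held more Granul_1, Granul_2, Mono_1, T cell_2, B cell and PT S1 cells, and IRF5 more LOH, DCT, PC, IC, T cell_1 and Podo cells. T cell_2 was 3.61 times as frequent in IRF1, PC 2.92 times and LOH 2.27 times as frequent in IRF5. The intervals of GEC, Endo, Myofib, PT S3, Macro and Mono_2 overlapped, which does not show that these 6 clusters were alike in the 2 libraries.

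The next 2 comparisons tested how day 1 after long ischemia differed from its later days and from the shorter ischemia. Against the mean of IRI long 3 and 14 d, 4 of 18 clusters (22.2%) differed past the threshold with limma on the logit scale. On that scale all 4 were higher at day 1. Endo was 5.36 and 4.78% at day 1, 2.63 and 3.10% at day 3 and 0.298 and 0.678% at day 14 (logit difference 1.52 ± 0.45, adjusted p = 0.0198, limma). Myofib was 0.983 and 0.969% at day 1, higher at day 3 with 1.63 and 2.81%, and 0.0284 and 0.0138% at day 14 (1.40 ± 0.37, adjusted p = 0.0130, limma). For Myofib, day 1 therefore lay between the later days, with both day 14 libraries below it and both day 3 libraries above it. LOH was 4.22 and 4.36% at day 3 and 2.72 and 4.27% at day 14, below the 9.37 and 21.3% of day 1 (1.43 ± 0.38, adjusted p = 0.0130, limma). PC was 2.65 and 3.15% at day 3 and 0.454 and 0.650% at day 14 (1.11 ± 0.36, adjusted p = 0.0314, limma), and at 2.18% IRF1 was below both libraries of day 3. No cluster passed without IRF5 or without IRF4, a day 3 library, and 1 passed without IRF12, a day 14 library. On the arcsine scale Myofib (adjusted p = 0.327) and PC (0.0555) did not pass (limma). GEC, Granul_2 and Macro passed there, which made 5 clusters, 3 higher and 2 lower at day 1. Macro was 7.13 and 6.83% at day 1, 15.3 and 14.3% at day 3 and 9.22 and 10.9% at day 14. Granul_2 was 10.1 and 4.43% at day 1, 10.7 and 7.22% at day 3 and 28.9 and 22.9% at day 14. With a centred log-ratio 5 clusters passed, 4 higher and 1 lower, and T cell_1 was gained. None passed per immune or non-immune cell, where 0 clusters had an unadjusted p under 0.05 in limma.

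Against IRI short 1 d, 1 of 18 clusters (5.56%) differed with limma. Mono_2 was 0.759 and 1.55% after short ischemia, above the 0.164 and 0.0255% after long ischemia (logit difference −2.70 ± 0.61, adjusted p = 0.00601, limma). Of the 18 clusters, 2 had an unadjusted p under 0.05. The Mono_2 difference did not pass without IRF5 (adjusted p = 0.117, limma). On the arcsine scale 3 clusters passed, among them Endo and Granul_1, both higher after long ischemia.

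The same cells were deposited with a second set of names, together with 2 further libraries, in an annotation of 20 libraries and 19 clusters. Under these names 10 of 19 clusters (52.6%) differed from control with limma, 5 higher (26.3%) and 5 lower (26.3%). Those with the largest changes were Neutro_2 (5.44 ± 0.66, adjusted p = 3.15e-06), Neutro_1 (5.23 ± 0.45, adjusted p = 5.55e-08), Macro (2.56 ± 0.39, adjusted p = 3.48e-05) and Fibro (2.19 ± 0.34, adjusted p = 3.48e-05), all higher, and PST, the straight PT, which was lower (−2.09 ± 0.35, adjusted p = 6.69e-05, all limma). The cluster PT of this annotation changed by −1.30 on the logit scale, and by −1.07 with norm5 as the only control. Fibro held the cells of Mono_1, of which 96.0% in IRI long 1 d and 93.2% in control had this name. The higher share of the cluster with a fibroblast name was thus that of the cells first named monocytes. With classes by name the endothelial and stromal share then differed by 18.4 percentage points, and by 10.1 with Fibro counted as myeloid, a choice made after the names had been compared (exact two-sided permutation p = 0.0357 for both).

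For several clusters the second name of a cell differed between ischemia and control, which is given without a test. Of the PT S3 cells, 67.0% in control and 15.3% in IRI long 1 d were named PST. Of those in IRI long 1 d, 29.0% were named DCT1, against 0.849% in control. The 2 libraries were unlike here, since 47.6% of PT S3 cells in IRF5 and 8.85% in IRF1 had the name DCT1, while no control library exceeded 3.52%. Of the PT S1 cells, 40.6% were named PCT, the convoluted PT, against 60.5% in control. Among T cell_2 cells, 31.3% were named T cell and 51.2% PT, against 47.9 and 21.5% in control. Again the 2 libraries were unlike, with 65.0% of the T cell_2 cells of IRF1 named PT, against 12.5% in IRF5. DCT cells were named LOH in 37.6% of cases against 8.70% in control. Granul_1, Macro and IC kept matching names in 96.1% (Neutro_1), 96.8% (Macro) and 97.4% (CD-IC) of cells. Cells whose compartment was the same under both names, with Fibro counted as myeloid, made up 89.6% of IRF1, 91.8% of IRF5 and 90.0 to 97.9% of control libraries, and with these cells alone the same 11 clusters passed (a choice made after the data had been seen).

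The position of cells in the UMAP was described last. The median position of a library's cells was set against that of the control libraries. Libraries with fewer than 20 cells of a cluster were left out. The 12 clusters measured had 4 to 6 control libraries and both ischemia libraries. Endo, Granul_1 and Podo were not among them, with at least 20 cells in only 2, 2 and 1 control libraries. Both ischemia libraries lay farther from control than any control library in 3 of these 12 clusters (25%). For GEC the distances were 11.6 in IRF1 and 11.2 in IRF5, against 0.221 to 0.507 in control. For PT S3 they were 2.14 and 3.41, against 0.173 to 1.15, and for PT S1 1.12 and 1.33, against 0.115 to 0.929. In both PT clusters the farthest control was norm5. UMAP distances have no unit and were made by the authors' integration, so only the order of the libraries is described.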

How the data were processed

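For each cell the authors deposited a cell name, a cluster name and a treatment group with its day (unit: other, words without a scale), and 2 UMAP coordinates (deposited as a score without unit). The authors' methods name Cell Ranger and the mouse genome mm10 (GRCm38), filters on gene number and mitochondrial reads, removal of doublets, no correction for ambient RNA, integration with LIGER, Louvain clustering and naming of clusters by hand. How the 20-library annotation was made is not given in the sources used here for that number of cells. From these tables, cells were counted per library, the prefix of the cell name, and cluster.

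The number of cells is the depth of a share. Exact 95% binomial intervals, and the limit that a count of 0 allows (3 counts), cover counting error only. The limma package (version 3.58.1, under R 4.3.3) was fitted to the logit of the share with 0.5 cells added, with 1 mean for each of 7 groups over 18 libraries, Benjamini-Hochberg adjustment over the 18 clusters and a threshold of 0.05. On simulated data for IRI long 1 d against control with 18 clusters and a true logit change of 2 (100 simulations), 93.2% of changed clusters were found and 1.58% of unchanged ones called. Each cluster was simulated on its own, so a rise of one could not lower the share of another. The 1.58% therefore does not cover calls that arise because shares of a library are tied to one another. Shares of 7 compartments and 9 ratios were tested by exact permutation, two-sided, over all 28 choices of 2 of 8 libraries, by the absolute difference of means. Other values used python 3.11.15 with pandas 2.3.3, numpy 2.4.6 and scipy 1.17.1.

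The clusters, compartments and ratios were chosen with earlier results of these data known. All 18 clusters are named. For the other contrasts and the second annotation, clusters past the threshold are named, or only the 5 that changed most if over 5 did so. Alternatives were other scales, denominators, filters and numbers of added cells, thinned libraries, norm5 alone, the barcode set as a term, library weights, only the 2 groups in the fit, and leaving out each library. Those chosen after seeing the data were cells of the same class in both annotations, leaving out T cell_2 or the second-annotation cluster Ribos., and Fibro as myeloid. Gene expression was not analysed here, and 1 left-out result is not reported here.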

Additional observations from a re-analysis of the deposited data

Results flagged for a closer look

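Among 46 groups of control libraries looked at, in 4 a control library stood apart from the others by Dixon's test. Chance alone singles out about 1 in 20 such groups. All 4 concern the distance of the median UMAP position from the other controls, and in all 4 the library is norm5. It was the farthest for PT S1 (0.929), PT S3 (1.15) and T cell_2 (1.27) and the nearest for LOH (0.0363).

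Of the differences tested between day 1 after long ischemia and the other ischemia groups, 5 passed the limma threshold. Against IRI long 3 and 14 d these were Endo (logit change 1.52), Myofib (1.40), LOH (1.43) and PC (1.11), and against IRI short 1 d it was Mono_2 (−2.70).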

How the results depend on the processing

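The 11 clusters that passed against control numbered 10 to 12 when each library was left out in turn, 13 with norm5 as the only control and 15 with a centred log-ratio. With norm5 alone or the barcode set as a term, PT S3 no longer passed. Counted per immune or non-immune cell, 8 to 13 passed with a library left out (11 with all), and B cell turned from 0.42 to −1.29. With the exact p doubled from the smaller side, the smallest possible p is 0.0714, so immune (40.3 points), myeloid (42.5), granulocyte (27.6), PT (−41.9) and endothelial or stromal cells (12.3) missed 0.05. Per immune cell, lymphoid cells fell by 63.6 points (exact permutation p = 0.0357). Immune cells are only myeloid and lymphoid here, so this is the mirror of the myeloid rise and not a separate result. Other tubule cells per non-immune cell turned to 8.67 points (exact permutation p = 0.536). With norm5 alone the differences were −8.33 points for lymphoid, −22.7 for PT and 13.8 for endothelial or stromal cells, and the log2 ratios −1.34 for PT S1 to PT S3 and 1.05 for LOH to PT. Against the later days 4 clusters passed, 0 per immune or non-immune cell, and 0 to 5 with a library left out (0 without IRF5 or IRF4). Against IRI short 1 d it was 1, 3 on the arcsine scale, and 0 to 1 with a library left out (0 without IRF5). The causes were not tested. Leaving out 1 of the 2 ischemia libraries leaves a single library, which limma then takes to vary like the other groups. No paired analysis was possible because the cell names tie no library to a replicate number. Clusters of few cells (Podo, Mono_2) are limited by counting.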
